A study of Mus musculus with 3 samples.

Results

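Genes of the pre-B cell receptor and of its assembly were followed through single-cell libraries of mouse bone marrow: Vpreb1, Vpreb2, Vpreb3, Igll1, Cd79a, Cd79b, Ighm, Igkc, Rag1 and Rag2. The genes were chosen by name. Of these 10 genes the 8 other than Ighm and Igkc were measured, out of 27998 listed genes, and Ighm and Igkc are not analysed here. The mCherry library held DAPI-, mCherry+, Lin-, c-kit+ cells of a C57BL/6 mouse with Mx1-Cre and a heterozygous conditional knock-in of Runx1-Runx1t1 (AML1-ETO), which carries mCherry downstream and is switched on by poly(I:C). The non_mCherry library held the mCherry-negative cells of the same gate from the same mouse. The control library held DAPI-, Lin-, c-kit+ cells of a wild-type C57BL/6 mouse. Mx1-Cre is driven by an interferon-responsive promoter, and the labels do not say whether the wild-type mouse received poly(I:C), nor give ages. Each group was 1 library and the 3 libraries came from 2 mice, so that no difference below has a replicate check, a test or a p-value, and all 95% intervals cover counting error only.

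After cells with low counts, high mitochondrial share or a high doublet score were left out, 10150 mCherry, 7850 non_mCherry and 8857 control cells remained, with medians of 8174 UMIs (unique molecules counted) per cell in mCherry, 9242 in non_mCherry and 15416 in control. Runx1t1, the ETO part of the knock-in, stood at 8.47 CPM (a gene's UMIs scaled to the total of the cells) in mCherry, 0.311 CPM in non_mCherry and 0.216 CPM in control cells. The mCherry library shared 34 of its cell barcodes with non_mCherry and 42 with control, and the non_mCherry and control libraries shared 24. The 4 mCherry cells and the 4 control cells of other classes whose barcode was that of a non_mCherry B cell progenitor-like cell held 0 UMIs of the genes other than Cd79b, and 0 of the B cell progenitor-like cells of mCherry or control shared a barcode with one of non_mCherry.

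In developing B cells the recombinases encoded by Rag1 and Rag2 cut the immunoglobulin loci, and the first heavy chain is paired with a surrogate light chain before any true light chain exists. The surrogate light chain is made of a variable-like part, encoded by Vpreb1 or Vpreb2, and a constant-like part (lambda 5), encoded by Igll1. Vpreb3 encodes a related protein of the B lineage that has been found with newly made immunoglobulin chains. Cd79a and Cd79b encode the signalling pair that carries the pre-B receptor and later the B cell receptor. In marrow these genes mark pro-B and pre-B cells, and Rag expression is known to be low while large pre-B cells divide.

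The surrogate light chain genes were far higher in the non_mCherry library than in both others, and lowest in mCherry. Igll1 lies on chromosome 16 from 16860671 to 16863985 (minus strand, mm10, as do all positions of genes here), next to Vpreb1, at 16868403 to 16870843 on the same strand. Igll1 had 42 UMIs (0.456 CPM; 95% Poisson interval 0.329 to 0.617) in mCherry, 21428 UMIs (247 CPM) in non_mCherry and 500 UMIs (3.49 CPM; 3.19 to 3.81) in control cells. Vpreb1 had 2.02 CPM in mCherry, 395 CPM in non_mCherry and 7.72 CPM in control cells. The non_mCherry level was thus 51.2-fold that of control for Vpreb1 (48.3 to 54.5) and 70.7-fold for Igll1 (64.7 to 77.4). Vpreb2, on the plus strand of chromosome 16 from 17980428 to 17981273, had 4 UMIs (0.0435 CPM) in mCherry, 2814 UMIs (32.4 CPM) in non_mCherry and 43 UMIs (0.300 CPM) in control cells. Its non_mCherry level was 108-fold that of control (79.97 to 149.6).

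Vpreb1 and Vpreb2 are near-identical copies, so their counts depend on how reads were divided between them. Of 759 aligned transcript bases 739 were the same (97.4%), and of the last 300 bases, where the 3' tags of such libraries lie, 288 were (96.0%). The likeness goes on upstream of the annotated RefSeq starts. The stretches below, from the RefSeq promoter table (GRCm38.p6), are shown because they run side by side with a shared run of 91 bases, given in capitals; the Vpreb1 stretch is at chr16:16869256-16869361 on the minus strand and the Vpreb2 stretch at chr16:17980315-17980420 on the plus strand.
Vpreb1: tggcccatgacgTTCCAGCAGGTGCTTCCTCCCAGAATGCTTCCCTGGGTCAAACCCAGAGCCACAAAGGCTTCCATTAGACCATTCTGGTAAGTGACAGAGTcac
Vpreb2: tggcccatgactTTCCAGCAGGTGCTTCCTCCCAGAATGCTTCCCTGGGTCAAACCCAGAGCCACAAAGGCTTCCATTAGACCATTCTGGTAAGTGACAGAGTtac
Both hold CAGGTG, an E-box letter pattern of the kind E proteins bind. The Igll1 window, shown because this gene moved with them, is at chr16:16863986-16864235 on the minus strand and holds the same letters on the opposite strand (in capitals).
Igll1: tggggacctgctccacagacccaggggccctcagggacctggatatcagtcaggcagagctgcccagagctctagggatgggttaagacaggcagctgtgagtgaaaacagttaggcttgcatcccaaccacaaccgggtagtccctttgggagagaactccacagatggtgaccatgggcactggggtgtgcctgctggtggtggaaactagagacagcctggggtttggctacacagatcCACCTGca
Of the 7 genes with a window in the table, which runs 250 bases before to 50 after a start, CAGGTG on either strand was in those of Rag1, Cd79a, Igll1, Vpreb1 and Vpreb2, and in 20.2% of all 32851 windows. The early B cell factor pattern CCCNNGGG was in the Igll1 window alone of these 7 (13.7% of all windows), and the longer palindrome of that factor in none (0.904%). TGGGAA, the core letters of Ikaros sites, was in the windows of Rag1 and Vpreb2 (25.6%). These are matches of letters, searched on both strands, and not bound sites. The windows of Vpreb1 and Vpreb3 lie inside these genes as the mm10 annotation used here places them, not before their starts.

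The signalling pair split. Cd79a (chromosome 7 from 24897381 to 24902197, plus strand) had 251 UMIs (2.73 CPM) in mCherry, 20912 UMIs (241 CPM) in non_mCherry and 678 UMIs (4.73 CPM) in control cells, and was 50.9-fold higher in non_mCherry than in control (47.2 to 55). Cd79b (chromosome 11 from 106311341 to 106314762, minus strand) had 36.2 CPM in mCherry, 156 CPM in non_mCherry and 37.5 CPM in control cells. The Cd79b ratio of non_mCherry to control was 4.15 (4.02 to 4.29), the smallest of the 8 genes, and the ratio of mCherry to control was 0.965 (0.924 to 1.01). Vpreb3 (chromosome 10 from 75943057 to 75949657, plus strand) followed Cd79a and the surrogate light chain, with 3.39 CPM in mCherry, 419 CPM in non_mCherry and 5.72 CPM in control cells, and was 73.2-fold higher in non_mCherry than in control (68.3 to 78.6).

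The recombinase genes were sparse in all 3 libraries. Rag1 (chromosome 2 from 101638282 to 101649501, minus strand) had 35 UMIs (0.380 CPM) in mCherry, 686 UMIs (7.90 CPM) in non_mCherry and 52 UMIs (0.363 CPM) in control cells, a 21.8-fold difference between non_mCherry and control (16.4 to 29.4). Rag2 (chromosome 2 from 101624718 to 101632529, plus strand) had 59 UMIs (0.641 CPM) in mCherry, 347 UMIs (4.0 CPM) in non_mCherry and 108 UMIs (0.753 CPM) in control cells, a 5.30-fold difference (4.26 to 6.64). Between mCherry and control the intervals of both ratios included 1, at 1.05 (0.663 to 1.64) for Rag1 and 0.851 (0.609 to 1.18) for Rag2. Both genes lie wholly inside the annotated gene B230118H07Rik, on its strand for Rag1 and opposite to it for Rag2, and 108 bases of Vpreb1 overlap Top3b on the other strand. How reads in these overlaps were assigned was not tested.

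**Figure D1:**
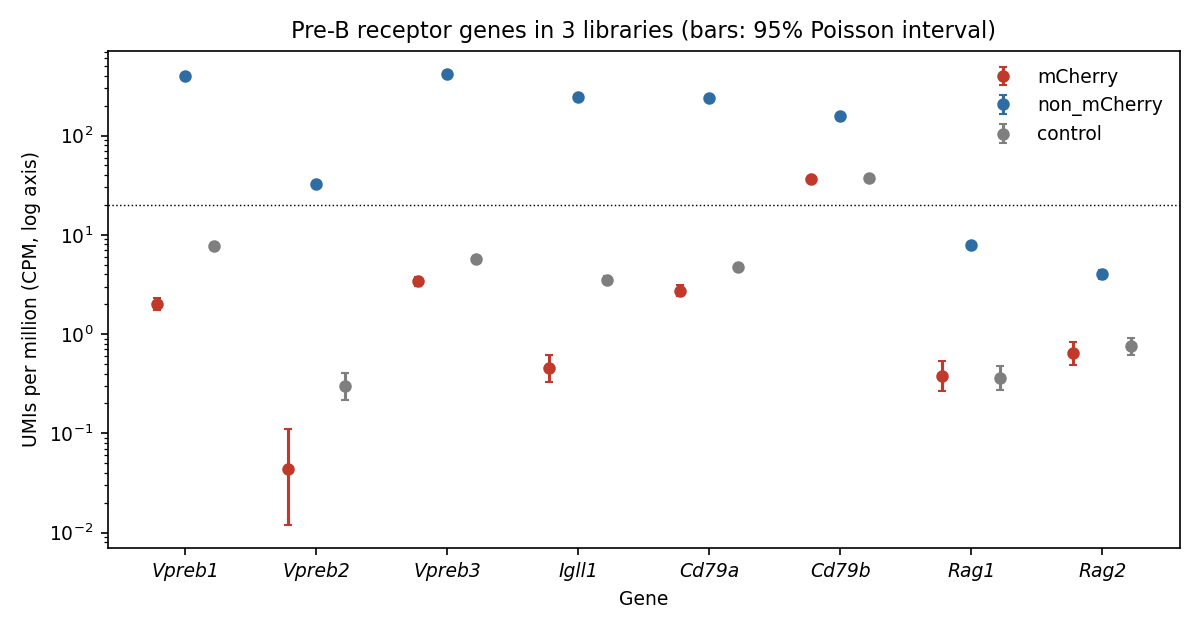
CPM of the 8 genes (log axis) in the mCherry, non_mCherry and control libraries, 1 point per library with its 95% Poisson interval; the dotted line is 20 CPM. All 8 genes were highest in non_mCherry, and Cd79b was the only gene above 20 CPM in all 3 libraries.

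As counts, 6 genes reached 20 CPM in non_mCherry or control, and all 6 were at least 2-fold higher in non_mCherry, where 1.4% of all 5634 genes of that level were (79 genes), and without the floor of 20 CPM all 8 were. Against non_mCherry, 6 of 6 were at least 2-fold lower in mCherry, where 11.1% of 6570 genes were. Against control, Cd79b was the only one of the 8 genes that reached 20 CPM in mCherry or control, and it was past 2-fold in neither direction, where of 6580 genes 18.5% lay that far above control in mCherry and 12.3% below. Below the floor, Igll1 was 7.64-fold (5.57 to 10.7), Vpreb2 6.90-fold (2.51 to 26.5) and Vpreb1 3.82-fold (3.27 to 4.48) lower in mCherry than in control. The comparisons of non_mCherry and of mCherry with control share the control library.

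To compare cells of unequal depth, each cell was thinned at random to 2000 UMIs. At that depth Igll1 was detected in 3 of 10150 mCherry cells (0.0296%), 2066 of 7850 non_mCherry cells (26.3%) and 47 of 8857 control cells (0.531%). Vpreb1 was found in 0.158%, Vpreb3 in 0.167% and Cd79a in 0.236% of mCherry cells, against 28.7%, 28.2% and 26.4% of non_mCherry cells and 0.994%, 0.531% and 0.666% of control cells. Cd79b was in 7.12% of mCherry, 27.8% of non_mCherry and 7.62% of control cells. Rag1 was in 0.0394% of mCherry, 3.40% of non_mCherry and 0.147% of control cells, and Rag2 in 0.167%, 1.46% and 0.181% of them. Without thinning the Igll1 shares were 0.0591% in mCherry, 34.5% in non_mCherry and 1.19% in control cells. As a background, erythroid progenitor-like cells, which should lack the gene, gave Igll1 in 7 of 462 non_mCherry cells (1.52%) and 3 of 519 control cells (0.578%) at 2000 UMIs, from median depths of 24102 and 30062 UMIs. For Vpreb1 the same cells gave 4.33% in non_mCherry and 0.578% in control. The control background lay in few cells: of 32 Igll1 UMIs in control erythroid progenitor-like cells, 3 cells that also held Vpreb1 and Vpreb3 had 14, 10 and 6, and the other 516 cells had 2. The control Igll1 share over all cells, 0.531%, was not above the share in all 519 erythroid cells, and 33 of its 47 cells with Igll1 were B cell progenitor-like. For Rag1 the erythroid cells gave 0 of 462 in non_mCherry and 0 of 519 in control, which allows shares of up to 0.649% and 0.578%. The mCherry library had 2 erythroid progenitor-like cells, too few for such a background, and Igll1 was in 0 of its 10133 cells outside the B, plasma and lymphoid-primed classes.

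Most UMIs of these genes in non_mCherry lay in 1 cell class, which was far larger there than in the other libraries. Clusters were made without the 8 genes, and 2 of them were called B cell progenitor-like from other markers, of which 16 of 16 and 15 of 16 were at least 2-fold up. Both had the markers Ebf1, Lef1, Blnk and Pax5 among their top genes, and also Mzb1, which was on the plasma cell list. They held 15 mCherry cells (0.148%; Clopper-Pearson interval 0.0827 to 0.244), 2025 non_mCherry cells (25.8%; 24.8 to 26.8) and 44 control cells (0.497%; 0.361 to 0.666), with medians of 2896 UMIs per cell in mCherry, 5047 in non_mCherry and 6205 in control. Their Kit level, from the gene for the c-kit used in the sort, was 19.4 CPM in mCherry, 24.0 CPM in non_mCherry and 21.4 CPM in control, against 269, 56.6 and 66.8 CPM over the whole libraries. All 3 samples were sorted as lineage-negative, and the labels do not list the lineage antibodies. In non_mCherry these cells held 94.6% of the Igll1 UMIs, 94.9% of Vpreb1, 94.2% of Cd79a and 86.7% of Rag1. In control they held 78.8% of Igll1, 64.5% of Vpreb1, 81.0% of Cd79a and 51.9% of Rag1. Of Cd79b, they held 4.03% in mCherry, 75.5% in non_mCherry and 5.01% in control.

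**Figure D2:**
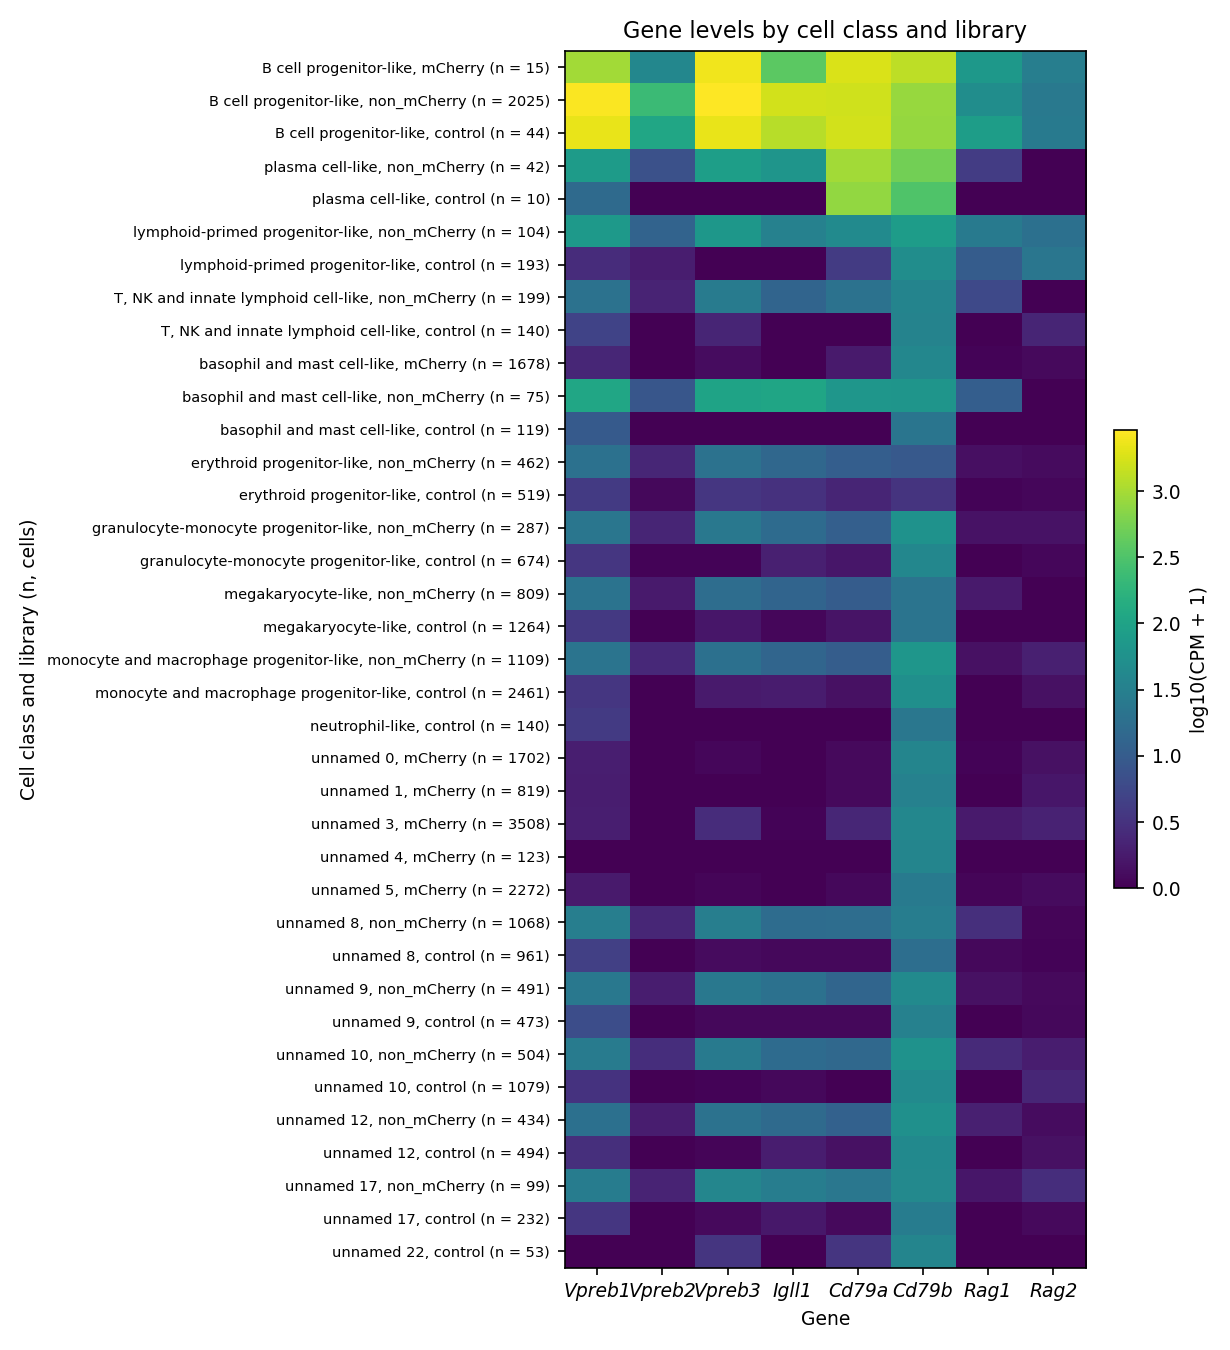
Levels of the 8 genes, as log10(CPM + 1), in each cell class and library with at least 50 cells and in all B cell progenitor-like and plasma cell-like cells; n is the number of cells. The B cell progenitor-like rows are the highest for all 8 genes, Cd79b is the only gene above 0 in every row, and Vpreb1, Igll1, Vpreb3 and Cd79a are higher in non_mCherry than in control in each of the other classes shown for both.

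Within B cell progenitor-like cells the libraries were much closer. Vpreb1 stood at 2702 CPM in non_mCherry and 2184 CPM in control cells of the class, a ratio of 1.24 (1.15 to 1.33). Igll1 stood at 1681 CPM in non_mCherry against 1207 CPM in control, a ratio of 1.39 (1.26 to 1.54), and Vpreb3 at 2875 against 2215 CPM, a ratio of 1.30 (1.21 to 1.40). The surrogate light chain genes and Vpreb3 were thus modestly higher as a share of the cells' UMIs, and Vpreb2, at 224 CPM in non_mCherry against 110.3 CPM in control (36 UMIs), had the largest ratio, 2.03 (1.46 to 2.91). In UMIs per cell, however, Vpreb1 stood at 16.1 in non_mCherry and 16.2 in control, Vpreb3 at 17.1 and 16.4, and Igll1 at 10.01 and 8.95. Vpreb2 was higher per cell in non_mCherry, at 1.33 against 0.818. The remaining genes were lower per cell in non_mCherry: Cd79a at 9.72 against 12.5, Cd79b at 5.04 against 6.11, Rag1 at 0.294 against 0.614, and Rag2 at 0.145 against 0.182. Cd79a was at 1633 CPM in non_mCherry and 1682 CPM in control (ratio 0.971; 0.892 to 1.06) and Cd79b at 846 and 824 CPM (1.03; 0.909 to 1.16). Rag1 was lower in non_mCherry, at 49.3 CPM against 82.7 CPM in control, a ratio of 0.596 (0.406 to 0.913) that rests on 27 control UMIs and turned with depth, by a split at 5000 UMIs chosen after the data were seen. Among cells with at least 5000 UMIs Rag1 stood at 19.5 CPM in non_mCherry and 78.3 CPM in 24 control cells (0.249; 0.156 to 0.417), and among those under 5000 UMIs at 129 CPM in non_mCherry and 98.5 CPM in 20 control cells with 7 UMIs (1.31; 0.631 to 3.28). At 2000 UMIs Rag1 was in 12.3% of non_mCherry and 20.5% of control cells of the class. Rag2 was at 24.3 against 24.5 CPM (0.991; 0.496 to 2.32). Over the 8 genes the median log2 ratio was 0.17 within the class and 3.74 over whole libraries. When the class was taken from at least 2 UMIs of 6 B lineage markers in place of clusters, which gave 2270 non_mCherry and 106 control cells, the median within the class was 1.47.

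The 15 B cell progenitor-like cells of the mCherry library differed from the others in composition. All 15 held Cd79a (7 to 26 UMIs, median 11) and Cd79b (3 to 14 UMIs, median 9), all 15 held the B lineage factor gene Ebf1, and 13 held Vpreb3 (up to 34 UMIs, median 15). Only 5 of them held Vpreb1, 2 held Vpreb2 and 4 held Igll1, so that 10 of 15 (66.7%; 38.4 to 88.2) had no UMI of any surrogate light chain gene. In non_mCherry 8 of 2025 such cells (0.395%; 0.171 to 0.777) and in control 7 of 44 (15.9%; 6.64 to 30.1) had none, and at 2000 UMIs the counts were 10, 12 and 7. Of the 10 mCherry cells, 9 had between 2198 and 3277 UMIs, close to the 2000 UMIs to which the non_mCherry and control cells were thinned, and 1 had 6386 UMIs. The 5 mCherry cells with such a gene had 3364, 5358, 14107, 18906 and 31197 UMIs. The shallowest of them held 1 UMI each of Vpreb1 and Igll1. The part of depth in this split was not tested. Rag1 was in 4 and Rag2 in 3 of the 15 cells. Dntt, the polymerase that adds bases at recombination joints and is known from pro-B cells, had 3 UMIs (29.1 CPM) in the mCherry cells of the class, against 421 CPM in non_mCherry and 891 CPM in control cells. Runx1t1 had 0 UMIs among the 103043 of these 15 cells, which allows a level of up to 29.1 CPM, above the 8.47 CPM of the whole library, so whether they carry the knock-in transcript was not detectable at this depth.

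The parts of the surrogate light chain were found in most B cell progenitor-like cells, and often in the same ones. At 2000 UMIs, 92.4% of the non_mCherry cells of the class (91.2 to 93.6) held both parts of the surrogate light chain, that is Vpreb1 or Vpreb2 with Igll1, against 75.0% of control cells (33 of 44; 59.7 to 86.8). At least 5 of the 8 genes were found in 80.2% of the non_mCherry and 70.5% of the control cells, and both Cd79 genes in 77.6% and 84.1% of them. Of the non_mCherry cells of the class with Igll1, 98.5% held Vpreb1 as well, little above the 98.0% of all cells of the class that did, and all 33 control cells with Igll1 did, against 84.1% of all control cells of the class. The 2 Rag genes were rarely seen in 1 cell: 339 non_mCherry cells of the class held either, and 19 (0.938%) held both. Rag1 was in 12.3% and Rag2 in 5.33% of these cells at this depth, so that a missing UMI says little of the gene in that cell. Over all non_mCherry cells, Igll1 was found in 84.5% of the cells with Vpreb1 (83.0 to 86.0), against 12.5% in mCherry (2 of 16 cells) and 40.9% in control (36 of 88).

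**Figure D3:**
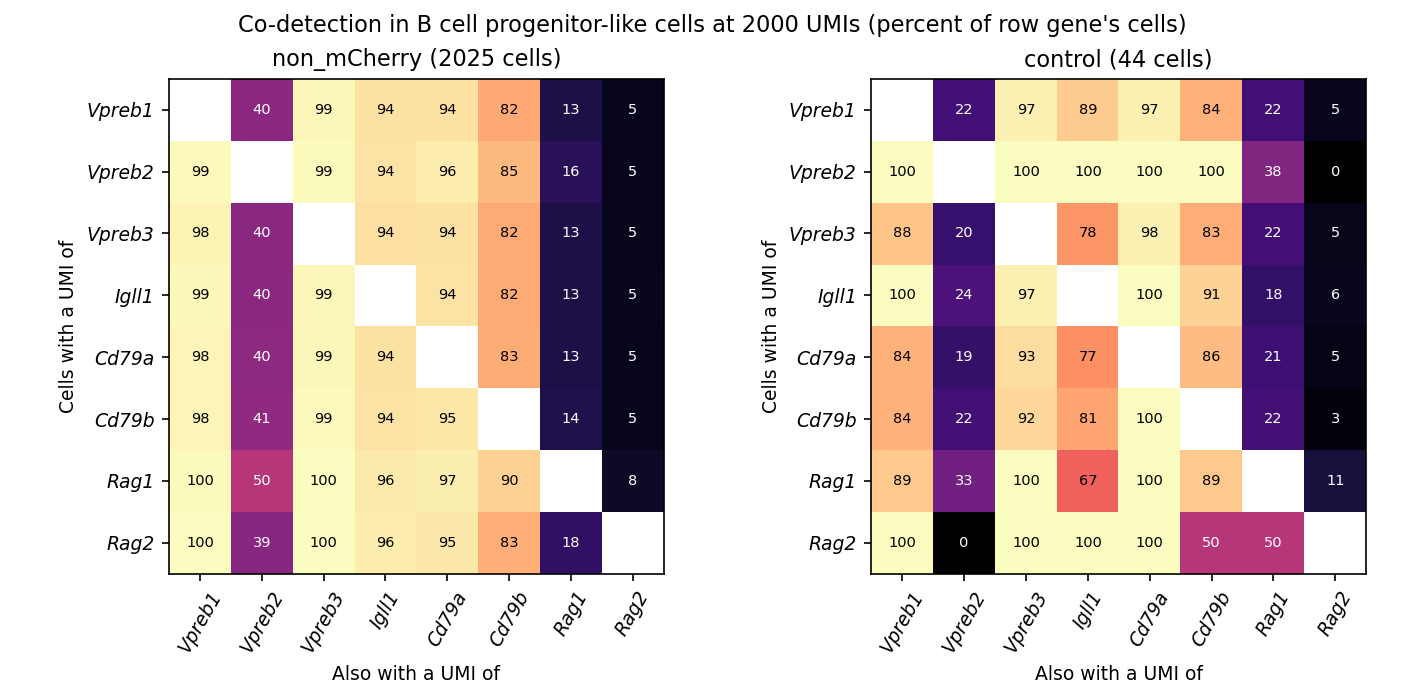
For B cell progenitor-like cells of non_mCherry and control thinned to 2000 UMIs, each square gives the percent of cells with a UMI of the row gene that also held the column gene. Among non_mCherry cells with Igll1, 98.5% held Vpreb1 (98.0% of all cells of the class did), while the Rag2 column is at most 7.60%; the control panel rests on 44 cells.

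Among the non_mCherry B cell progenitor-like cells, Rag1 was lower in those with cycling genes than in those without. Cells were called cycling at 3 or more UMIs of 10 cycling genes after thinning. Rag1 stood at 22.9 CPM in the 952 cycling cells and 85.3 CPM in the 1073 others, 3.73-fold lower (3.1 to 4.5). Igll1 stood at 1327 against 2162 CPM (1.63-fold lower), Vpreb1 at 2075 against 3553 CPM (1.71-fold lower) and Cd79a at 1439.6 against 1895 CPM (1.32-fold lower), so Rag1 differed more than these. Depth moved with the split: the median was 6732 UMIs in cycling and 3687 UMIs in other cells, and its part in the difference was tested only by a split at 5000 UMIs, chosen after the data were seen. Among cells with at least 5000 UMIs, Rag1 was at 16.2 CPM in 661 cycling and 26.2 CPM in 360 other cells, a ratio of 0.618 (0.452 to 0.847), and among cells under 5000 UMIs at 59.6 CPM in 291 cycling and 163 CPM in 713 other cells (0.366; 0.276 to 0.478). Rag2, its partner in cutting, lay closer together. It stood at 21.0 CPM in cycling and 28.8 CPM in other cells (0.731; 0.577 to 0.925), at 16.9 and 14.8 CPM among cells with at least 5000 UMIs (1.14; 0.788 to 1.67) and at 43.8 and 47.1 CPM among those under 5000 UMIs (0.930; 0.644 to 1.32). In control, with 26 cycling and 18 other cells, Rag1 stood at 82.6 and 82.9 CPM, with a ratio interval of 0.417 to 2.63.

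Rag1 also differed with the amount of RNA per cell. In non_mCherry cells of the class with at least 5000 UMIs it stood at 19.5 CPM, or 0.167 UMIs per cell, and in those under 5000 UMIs at 129 CPM, or 0.422 UMIs per cell, 6.63-fold lower by CPM in the deeper cells (5.54 to 7.97). For Vpreb1 the levels were 2094 and 4328 CPM, 2.07-fold lower in the deeper cells, whereas its UMIs per cell were 18.0 in the deeper and 14.1 in the shallower cells. Rag1 was thus lower in deeper cells by both measures and Vpreb1 by CPM alone. Rag1 and Rag2 were also higher where Dntt was detected: Rag1 stood at 69.0 CPM in 962 non_mCherry cells of the class with Dntt at 2000 UMIs and 33.2 CPM in the 1063 without (2.08-fold; 1.75 to 2.46), and Rag2 at 32.2 and 17.8 CPM (1.81-fold; 1.42 to 2.30). The ratio between the same cells was 1.27 for Vpreb1 and 0.990 for Cd79b. Among cells without cycling genes alone, Rag1 stood at 117 CPM in 557 cells with Dntt and 55.6 CPM in 516 without (2.10-fold; 1.71 to 2.57). Cells with Dntt were shallower, with medians of 4557.5 against 5572 UMIs, and 3455 against 4081.5 UMIs without cycling genes. The part of depth in this difference was not tested. In control, Rag1 stood at 87.6 CPM in 28 cells with Dntt and 66.5 CPM in 16 without. Rag2 stood there at 19.9 CPM (5 UMIs) and 39.9 CPM (3 UMIs).

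**Figure D4:**
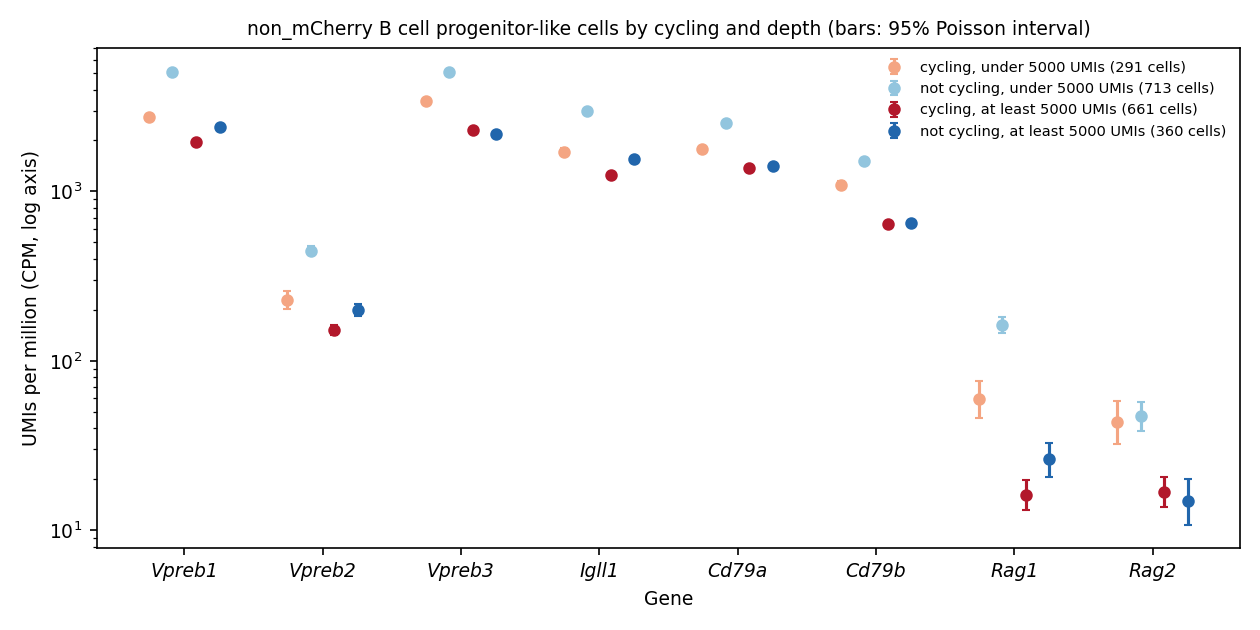
CPM of the 8 genes (log axis) in non_mCherry B cell progenitor-like cells split by cycling genes and by 5000 UMIs per cell, with 95% Poisson intervals. Rag1 was highest, at 163 CPM, in cells under 5000 UMIs without cycling genes and lowest, at 16.2 CPM, in cycling cells with at least 5000 UMIs.

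Outside the B class, the recombinase genes were found in lymphoid-primed progenitor-like cells, the early lymphoid cells named from Dntt, Flt3 and other markers, and there the libraries were less far apart. In this class Rag2 stood at 18.1 CPM in 104 non_mCherry cells and 22.1 CPM in 193 control cells, a ratio of 0.818 (0.443 to 1.44), and Rag1 at 25.5 and 9.09 CPM, a ratio of 2.81 (1.5 to 5.3). Of all Rag2 UMIs 4.90% in non_mCherry and 47.2% in control lay in this class, and of all Rag1 UMIs 3.50% and 40.4%. Igll1 stood at 31.9 CPM and Vpreb3 at 66.9 CPM in the non_mCherry cells of the class, and both had 0 UMIs in its control cells. A few cells held most of these UMIs: in the 98 non_mCherry cells of the class without 5 or more UMIs of one of the genes other than Cd79b, Igll1 had 4 UMIs (4.47 CPM), Vpreb3 stood at 23.4 CPM and Vpreb1 at 13.4 CPM, while Rag1 stood at 17.9 CPM and Rag2 at 16.7 CPM. Plasma cell-like cells, which secrete antibody, held the signalling pair: Cd79a stood at 944 CPM in 42 non_mCherry and 795 CPM in 10 control cells, and Cd79b at 525 and 324 CPM. In the same cells Vpreb1 had 25 UMIs in non_mCherry and 1 UMI in control, and Igll1 20 UMIs and 0 UMIs.

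Cells outside the B, plasma and lymphoid-primed classes gave a low level of all 8 genes in the non_mCherry library. Vpreb1 stood there at 0.957 CPM in 10133 mCherry cells, 22.6 CPM in 5679 non_mCherry cells and 2.76 CPM in 8610 control cells. Igll1 stood at 0.0218 CPM in mCherry, 15 CPM in non_mCherry and 0.754 CPM in control cells, and Cd79a at 0.664 CPM in mCherry, 11.9 CPM in non_mCherry and 0.484 CPM in control cells. The non_mCherry level was 0.836% of that in its own B cell progenitor-like cells for Vpreb1, 0.892% for Igll1, 0.771% for Vpreb3, 0.730% for Cd79a (0.681 to 0.781) and 0.595% for Vpreb2. Without the 75 outside cells with 5 or more UMIs of one of the genes other than Cd79b, an exclusion chosen after the data were seen, these shares were 0.548% for Vpreb1, 0.576% for Igll1, 0.446% for Vpreb3, 0.398% for Cd79a and 0.290% for Vpreb2. The level was spread over classes: across 11 non_mCherry classes Vpreb1 ran from 18.0 to 112 CPM with a median of 21.7 CPM, and most cells with Vpreb1 there held 1 UMI (833 cells, against 179 with more). The highest value, in 75 basophil and mast cell-like cells, was 36.2 CPM without the 3 of them that held 5 or more UMIs of one of the genes other than Cd79b.

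Relative to Vpreb3, the counts of Vpreb1 and Cd79a outside were close to those in B cells in non_mCherry. Igll1 was somewhat higher and Vpreb2 somewhat lower outside there. In control, Vpreb1 and Igll1 were further apart. In non_mCherry there were 1.02 Vpreb1 UMIs per Vpreb3 UMI outside (0.952 to 1.09) and 0.940 in B cell progenitor-like cells, and 0.538 and 0.568 for Cd79a. For Igll1 the values were 0.676 (0.626 to 0.731) and 0.585 (0.575 to 0.595), and for Vpreb2 0.0602 (0.0486 to 0.0738) and 0.0780 (0.0749 to 0.0811). Rag1, Rag2 and Cd79b stood apart in the same library, with 0.0405 Rag1 UMIs per Vpreb3 UMI outside (0.0312 to 0.0518) and 0.0172 in B cell progenitor-like cells. The values were 0.0227 (0.0159 to 0.0314) and 0.00845 for Rag2, and 1.89 and 0.294 for Cd79b. In control the outside cells gave 4.0 Vpreb1 UMIs per Vpreb3 UMI (3.19 to 5.05), against 0.986 in B cell progenitor-like cells (0.888 to 1.10), and 1.09 for Igll1 against 0.545. There 297 outside cells had a single Vpreb1 UMI and 38 a single Vpreb3 UMI. In mCherry the outside cells gave 1.42 Vpreb1 UMIs per Vpreb3 UMI (1.01 to 2.00), against 0.392 in B cell progenitor-like cells, and 86 of them had a single Vpreb1 UMI and 5 a single Vpreb3 UMI. Vpreb1 was thus higher relative to Vpreb3 outside B cells in mCherry and control, and in non_mCherry by little. A few cells held many of these UMIs. Without the 4 mCherry and 7 control outside cells that held 5 or more UMIs of one of the genes other than Cd79b, an exclusion chosen after the data were seen, the Vpreb1 ratio was 12.6 in mCherry and 7.83 in control, and without the 75 such non_mCherry cells it was 1.15. The Igll1 ratio without those 75 cells was 0.754 (0.683 to 0.833). In 1 of the 4 mCherry cells, with 21869 UMIs, Rag1 had 22 UMIs, Vpreb3 45, Cd79b 25, Cd79a 11 and Rag2 5, with 0 of Vpreb1 and Igll1, so that this cell held most of the 28 Rag1 UMIs found outside the 3 classes in that library.

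**Figure D5:**
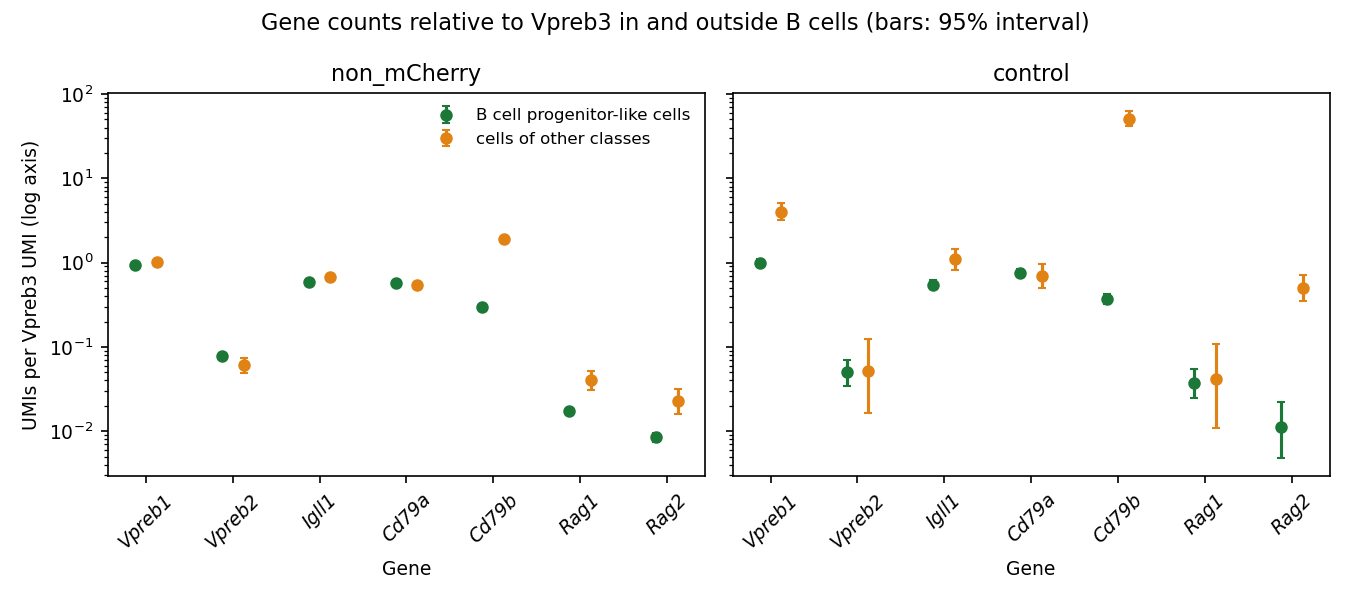
UMIs of each gene per Vpreb3 UMI (log axis) in B cell progenitor-like cells and in cells outside the B, plasma and lymphoid-primed classes, in non_mCherry and control, with 95% intervals. Vpreb1 and Cd79a lie close together in and outside B cells of non_mCherry, and Igll1 lies somewhat higher outside there (0.676 against 0.585). Vpreb1 lies higher outside B cells in control (4.0 against 0.986), and Cd79b and Rag2 lie higher outside B cells in both.

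Cd79b had the highest level of the 8 genes outside the B, plasma and lymphoid-primed classes in every library. It stood at 34.7 CPM in mCherry, 41.8 CPM in non_mCherry and 35.3 CPM in control cells outside the 3 classes, a ratio of non_mCherry to control of 1.18 (1.13 to 1.24). Rag2 was low there, at 0.609 CPM in mCherry, 0.503 CPM in non_mCherry and 0.348 CPM in control. That was 2.09%, 2.07% and 1.42% of its level in B cell progenitor-like cells, where mCherry had 3 and control 8 Rag2 UMIs. Of all Rag2 UMIs, 94.9% in mCherry, 10.7% in non_mCherry and 45.4% in control lay outside the 3 classes. Across classes Cd79b was ordered. In control it was highest in monocyte and macrophage progenitor-like cells (52.2 CPM; 50.2 to 54.2) and lymphoid-primed progenitor-like cells (48.9 CPM; 40.3 to 58.8), whose intervals overlap. It was lower in granulocyte-monocyte progenitor-like (38.9 CPM) and megakaryocyte-like cells (20.7 CPM), with other clusters between these, and lowest in erythroid progenitor-like cells (2.36 CPM; 1.64 to 3.28). In non_mCherry the same classes stood at 65.1, 79.7, 57.7, 20.1 and 8.18 CPM, below the 846 CPM of B cell progenitor-like cells. The mCherry clusters with at least 50 cells lay between 25.9 and 39.3 CPM, above the erythroid value of either other library. Cells with Cd79b and Cd79a together were rare outside: at 2000 UMIs 3 of 10133 mCherry, 24 of 5679 non_mCherry and 0 of 8610 control outside cells held both.

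Likeness of pattern was measured as Pearson's r of log2(CPM + 5) over the 33 points of a class in a library with at least 50 cells. These points share libraries and differ in depth, so r is a description. B cell progenitor-like cells gave a point in non_mCherry alone (2025 cells), since mCherry had 15 and control 44 of them. Thus r does not compare that class between libraries. Igll1 was most like Vpreb3 (0.991), Cd79a (0.986) and Vpreb1 (0.983) and less like Rag1 (0.787), Cd79b (0.699) and Rag2 (0.499). Among all other genes, those close to Igll1 included Ebf1 (0.956), Mzb1, Pax5, Cecr2, Akap12, Rmnd1 and Pcdh9 (0.874). For Rag1 and Cd79b, taken up after the data were seen in place of Igkc, the closest was Blnk, the adaptor of the pre-B receptor, at 0.974 for Rag1, and Gstt2, a glutathione transferase gene, at 0.893 for Cd79b. Ebf1, Pax5, Cecr2, Akap12 and Blnk were also on the marker list that named the B cell progenitor-like clusters.

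Other genes of the pathway were read from lists. Of 11 B lineage factor genes with at least 20 CPM in non_mCherry or control, 5 were at least 2-fold higher in non_mCherry and 0 lower (median log2 ratio 0.37). The 4 furthest apart on the log2(CPM + 5) scale were Ebf1, which starts the B cell program (192 against 3.38 CPM, 56.9-fold), Pax5, which commits cells to it (39.3 against 0.600 CPM, 65.4-fold), Lef1, a factor of early lymphocytes (37.6-fold), and Pou2af1, an immunoglobulin coactivator (38.6-fold). Of 11 signalling genes 2 were higher, among them the adaptor gene Blnk (54.1 against 2.54 CPM, 21.3-fold), and 0 lower (median 0.06). Of 5 recombination and end joining genes 0 were past 2-fold in either direction (median 0.24). Of all genes of that level 1.4% lay 2-fold or more above control and 0.319% below, with a median of -0.03. Jchain, which links secreted antibody chains, was at 0.369 CPM in mCherry, 251 CPM in non_mCherry and 49.9 CPM in control cells.

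Dntt, whose product acts at the joints that Rag cutting leaves, was highest in mCherry, unlike Rag1 and Rag2. It stood at 249.8 CPM in mCherry, 110.2 CPM in non_mCherry and 67.1 CPM in control cells, and was 3.72-fold higher in mCherry than in control, while Rag1 was at 0.380 and 0.363 CPM in these libraries. Hmgb2, a chromatin protein that assists Rag cutting, was at 563 CPM in mCherry and 1248 CPM in control, and of the 5 recombination genes with at least 20 CPM these 2 were past 2-fold, 1 in each direction. Of 8 B lineage factor genes 2 were at least 2-fold higher in mCherry than in control, Foxo1, known to act on the Rag genes (25.9 against 4.59 CPM), and Bach2, a repressor of the plasma cell program (20.9 against 3.33 CPM), and 1 lower, Irf8 (15.5 against 263 CPM), a factor shared with myeloid cells. Of 9 signalling genes 2 were higher, the phospholipase gene Plcg2 (77.6 against 36.4 CPM) and the kinase gene Fyn (43.1 against 19.7 CPM), and 0 lower. These shares stand beside 18.5% higher and 12.3% lower over all genes.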

How the data were processed

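Droplet libraries (10x) of sorted bone marrow cells were sequenced as 150-base pairs and turned into UMI counts per gene and barcode, deposited by the authors as 1 matrix per library. Cell Ranger 6.1.2 and build mm10 are named per the submitters' processing notes, while the file headers give software version 3.1.0. The genes and gene lists were chosen with earlier results of these data known.

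Barcodes with at least 1000 genes, at least 2000 UMIs, at most 10% mitochondrial UMIs and a Scrublet doublet score of at most 0.25 were kept (doublets left out: 2.58% of mCherry, 2.56% of non_mCherry and 2.31% of control barcodes). Cells were clustered together (2000 variable genes without the genes reported and other immunoglobulin genes, 30 principal components, 15 neighbours, Leiden resolution 1.0). A cluster was named from the marker list with the highest mean log2 ratio to all other cells. That mean had to be at least 1, with at least 3 markers 2-fold up. No other list could have more markers among the cluster's top 10 genes, and a shallow cluster needed a marker of its own there. Clusters that failed this were left unnamed. CPM was computed from summed UMIs of a gene over all UMIs of the cells. Shares were taken after thinning each cell to 2000 UMIs. Intervals are 95%: exact Poisson for CPM, Clopper-Pearson for shares and conditional binomial for ratios. Ratios between libraries were counted at 2-fold with a floor of 20 CPM in either library, and log2 ratios carry a pseudocount of 5 CPM. With 1 library per group no test across groups was made. From each list up to 4 genes past 2-fold, and for likeness the 8 closest genes, were named; Rag1 and Cd79b replaced Igkc there after the data were seen. Some results that this rule would name are not reported here. Gene positions are from the mm10 annotation and sequences from RefSeq. The routines were tested on simulated data. Python 3.11.15, numpy 2.4.6, scipy 1.17.1, pandas 2.3.3, scanpy 1.11.5, igraph 0.11.9, Biopython 1.88 and matplotlib 3.10.9 were used.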

Additional observations from a re-analysis of the deposited data

Results flagged for a closer look

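Barcodes left out by the filter on cells (904 in mCherry, 1695 in non_mCherry and 716 in control, with medians of 1185, 1292 and 1161 UMIs) carried these genes in non_mCherry, in data outside the comparisons, at levels above those in control. Vpreb1 stood at 3251 CPM in the left-out barcodes of non_mCherry and 27.4 CPM in those of control, Vpreb2 at 254 and 2.74 CPM, Vpreb3 at 3626 and 77.5 CPM, and Igll1 at 1964 and 18.2 CPM. Cd79a stood at 1851 CPM in non_mCherry and 113 CPM in control, and Cd79b at 1029.7 and 74.8 CPM. Rag1 stood at 266 CPM in non_mCherry and 7.29 CPM in control, and Rag2 at 40.8 CPM in non_mCherry and 0 UMIs in control. The kept B cell progenitor-like cells of non_mCherry had 49.3 CPM of Rag1, 24.3 CPM of Rag2, 2702 CPM of Vpreb1 and 1681 CPM of Igll1. Per Vpreb3 UMI there were 0.0733 Rag1 UMIs (0.0673 to 0.0796) in the left-out barcodes and 0.0172 in the kept B cell progenitor-like cells of non_mCherry. The filter and the doublet score together left out 48.4% of all Rag1 UMIs of non_mCherry, against 21.4% of Vpreb1 and 20.8% of Igll1. The left-out barcodes described here, without the doublets, held 599 of its 1330 Rag1 UMIs, 7327 of 43713 Vpreb1 UMIs and 4427 of 27040 Igll1 UMIs. Of its left-out barcodes 1609 had under 2000 UMIs and 487 over 10% mitochondrial UMIs, and the part of depth in these levels was not tested.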

How the results depend on the processing

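No paired analysis was possible because each group was 1 library. Over the planned and added alternatives 57 recomputed main results stayed the same and 13 moved, as did 445 and 220 single-gene values, and of those past 2-fold 0 reversed. The same meant within the error of the main value, or, for counts of genes, within a set fold of the main count. Without the floor of 20 CPM, 3 genes were at least 2-fold lower in mCherry than in control, against 0 with it. Igll1 was in 21.0% of non_mCherry cells thinned to 5000 UMIs, 34.5% without thinning and 21.1% at 2 or more UMIs, and in 1.19% of control cells without thinning and 0.327% at 2 or more UMIs. Thinning to 5000 UMIs used only cells with at least that many UMIs, among them 1021 of the 2025 non_mCherry B cell progenitor-like cells. Its shares are thus of another set of cells. Of non_mCherry cells with Vpreb1, 73.7% at 5000 UMIs, in that set, and 73.1% without thinning held Igll1. With the B class taken from markers, the median log2 ratio of the genes within it was 1.47, and Vpreb1 outside it stood at 15.1 CPM in non_mCherry; without outside cells with 5 or more UMIs of a gene other than Cd79b, it was 14.8 CPM. The Rag1 ratio of cycling to other non_mCherry cells was 0.618 at 5000 or more UMIs and 0.366 under 5000 UMIs, against 0.268 over all; the Rag1 ratio of non_mCherry to control within the class was 0.249 and 1.31 there, against 0.596 over all. Except for the floor and the added cell sets, the cause was not tested. Low counts limit what can be said of Rag1, Rag2 and Vpreb2 in mCherry and control.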
